A study of Mus musculus with 8 samples.

Results

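The genes described here are 5 enzymes that make or use ketone bodies, Aacs, Bdh1, Bdh2, Acat1 and Oxct1, followed in mouse liver after a pulse of growth hormone (GH). They were taken by symbol, 5 of the 24197 genes of the deposited table, and all 5 passed the filter on low reads both in exons and in introns. The set was built around Aacs, which was chosen by its exonic and intronic difference from the Hypox group in these same libraries, and the other 4 were chosen by function. The values of the 5 enzymes against Hypox are therefore a description and carry no test.

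Ketone bodies are small acids that the liver makes from fatty acids during fasting. In hepatocyte mitochondria a thiolase joins acetyl-CoA units to acetoacetyl-CoA, further enzymes turn this into acetoacetate, and BDH1 reduces acetoacetate to beta-hydroxybutyrate, which is exported to other organs. Other tissues take ketone bodies back into energy metabolism through OXCT1, whereas acetoacetyl-CoA synthetase (AACS) re-activates acetoacetate in the cytosol, where the acetoacetyl-CoA serves sterol and fatty acid synthesis. GH signals in hepatocytes through its receptor, JAK2 and STAT5b.

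All 4 groups were male CD-1 mice whose pituitary, the source of circulating GH, had been removed by the supplier at 7 weeks of age and which were 11 weeks old. Mice of 3 groups received an intraperitoneal pulse of recombinant rat GH (125 ng for each g of body weight) and were killed 30, 90 or 240 min later. The mice they are set against (Hypox) are called untreated in the design text and vehicle controls in the treatment text. Each group held 2 libraries, and each library came from a pool of 4 livers, so that p-values and SDs measure the spread between pools. One Hypox pool carries another batch prefix in its label than the other 7 pools, and which of the 2 Hypox libraries it is cannot be told. The 3 comparisons with Hypox share its 2 libraries, and no time had controls of its own, so that time, handling and GH cannot be told apart.

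The libraries held 15935303 to 34452570 mapped reads. A total of 8 of 8 hepatocyte markers (Alb and Cps1 among them) were measured, at a summed 18447 to 25953 scaled CPM (reads per library size after scaling) in the 8 libraries. The summed hepatocyte markers were 18447 to 19607 scaled CPM in GH 240 min livers, against 25160 to 25953 in Hypox livers. Alb dominates this sum, at 13583 to 20096 scaled CPM over the 8 libraries. For its level Cyp2e1 was the steadiest of the hepatocyte markers, at 1367 to 1570. Others ranged more widely for their level, such as Serpina1c from 70.6 to 174 and Apoa1 from 307 to 627. The 5 of 5 cholangiocyte markers summed to 14.5 to 22.7 scaled CPM in GH 240 min livers, against 7.10 to 9.81 in Hypox livers. Spp1 had the widest range of these markers in CPM, 3.75 to 14.8 scaled CPM over the 8 libraries. For their low level Krt19 (0.125 to 2.27), Krt7 (0.0615 to 0.999) and Epcam (0.106 to 0.863) ranged more widely, and Sox9 less. The 6 of 6 sinusoidal endothelial markers summed to 117 to 125 scaled CPM in GH 240 min livers, against 163 to 171 in Hypox livers. Kupffer cell markers (6 measured of 7) summed to 45.2 to 62.7 scaled CPM in GH 240 min livers, against 64.1 to 82.3 in Hypox livers, and stellate cell markers (5 of 5) to 99.4 to 105.03, against 115 to 116. Neutrophil markers (4 of 5) summed to 1.04 to 1.09 scaled CPM in GH 240 min livers and 3.44 to 5.33 in GH 90 min livers, against 1.78 to 2.36 in Hypox livers. Adipocyte markers (4 of 4) summed to 0.591 to 0.668 scaled CPM in GH 240 min livers, against 0.157 to 0.230 in Hypox livers, with Adipoq and Lep at 0 in every library and Cidec at 0.0368 to 0.668. The 240 min sums of red blood cell, skeletal muscle and pancreatic acinar markers overlapped with Hypox. The part of these shifts in the results below was not tested. In bulk RNA fewer cells of a type, less RNA per cell and a change in a dominant marker gene cannot be told apart. The shallower GH 30 min library stood apart in ribosomal RNA, since its unscaled level of Rn45s was 19470 CPM while the other 7 libraries had 6303 to 11881 CPM. The 30 min values of the 5 enzymes are therefore also given without it.

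Aacs lies on chromosome 5 at 125956242 to 125997773 in the coordinates of the authors' table (mm9), with 3173 bases of exon and 38358 bases of intron. RefSeq promoter windows (build GRCm38.p6, 250 bases before to 50 bases after the annotated start) matched 4 of the 5 enzymes, Aacs, Bdh1, Bdh2 and Oxct1, with 5 windows in all because Bdh1 has 2 starts. Those of Aacs and of the ketone body transporter Slc16a1 are shown because these 2 genes had higher levels after GH. The Aacs window is chr5:125475623-125475922 and the Slc16a1 window chr3:104638414-104638713, both on the plus strand. Capitals mark the motif GGCGTGG or its reverse complement.
Aacs: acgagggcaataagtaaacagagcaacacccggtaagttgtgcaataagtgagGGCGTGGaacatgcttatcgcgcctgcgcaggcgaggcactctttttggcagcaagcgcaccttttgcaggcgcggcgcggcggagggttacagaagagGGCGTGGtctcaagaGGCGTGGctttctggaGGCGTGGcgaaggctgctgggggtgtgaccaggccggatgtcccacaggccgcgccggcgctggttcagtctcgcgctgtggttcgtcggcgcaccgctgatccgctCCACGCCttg
Slc16a1: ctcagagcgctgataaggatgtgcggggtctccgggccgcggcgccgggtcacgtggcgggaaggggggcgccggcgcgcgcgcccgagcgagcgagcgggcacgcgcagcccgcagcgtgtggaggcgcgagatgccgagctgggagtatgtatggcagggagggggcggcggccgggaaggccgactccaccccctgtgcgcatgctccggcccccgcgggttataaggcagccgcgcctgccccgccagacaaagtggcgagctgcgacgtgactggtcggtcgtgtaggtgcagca

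Both strands of these windows were searched for TTCNNNGAA, the STAT5 consensus, and TCACNNCAC, a sterol regulatory element type of motif. Neither was found in the windows of Aacs, Bdh1, Bdh2, Oxct1 and Slc16a1. Of all 32851 mouse windows 8.30% and 3.77% held them, so most windows lack each motif, and nothing is read from their absence here. GGCGTGG, which was chosen after the sequence was seen, occurred 5 times in the Aacs window, at bases 54, 153, 168, 184 and 291, with 4 of the 5 copies on the strand shown. At least 4 copies were held by 21 of the 32851 windows (0.0639%), and the windows of the other enzymes and of Slc16a1 held none. No motif overlapped another. A match is a description of the letters and not of binding.

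Aacs was higher after GH at every time, and further above Hypox the later the livers were taken. Exonic levels, in FPKM (reads per length of exon and per library size), were 3.67 and 2.22 in the Hypox libraries, 7.28 and 10.6 after 30 min, 15.9 and 14.8 after 90 min, and 25.7 and 29.3 after 240 min, with the deeper library of each group first. No library overlapped with one of the step before, and the lowest GH library lay above the higher Hypox library. These levels rest on 401 and 231 exonic reads in Hypox livers and on 624 to 2090 reads in GH livers.

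The mean exonic level of Aacs was 8.95 ± 2.35 FPKM at 30 min, against 2.94 ± 1.02 FPKM in Hypox livers (SD, n = 2 each). The log2 fold change on the log2(CPM + 0.1) scale was 1.66 ± 0.24 (SE), a 3.15-fold difference. With the shallower 30 min library left out it was 1.32, or 2.50-fold. At 90 min the mean level was 15.4 ± 0.75 FPKM (SD, n = 2) and the log2 fold change over Hypox 2.38 ± 0.24, or 5.22-fold. At 240 min the mean level was 27.5 ± 2.51 FPKM (SD, n = 2) and the log2 fold change over Hypox 3.18 ± 0.24, or 9.06-fold. The authors' deposited table gives ratios of 3.18, 5.19 and 8.96 for the gene body at these times. Between neighbouring times the exonic log2 fold change was 0.73 ± 0.24 for 90 over 30 min and 0.79 ± 0.24 for 240 over 90 min.

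**Figure D1:**
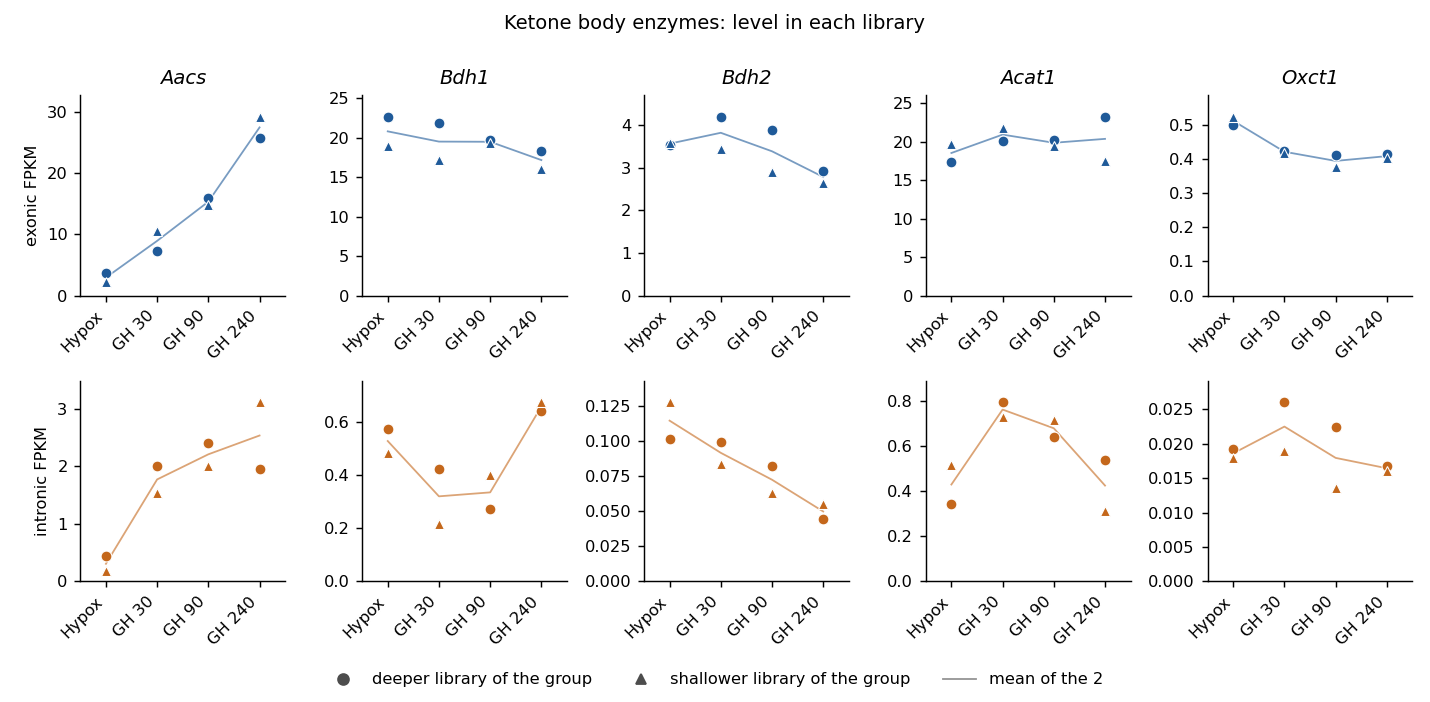
Exonic (upper row) and intronic (lower row) level of the 5 enzymes in FPKM, each axis starting at 0, by group in time order; circles are the deeper and triangles the shallower library of a group, and lines join the means of the 2. Exonic Aacs climbs at each step to 25.7 and 29.3 FPKM at 240 min, whereas its intronic level is already 2.01 and 1.54 FPKM at 30 min.

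Reads in introns come largely from unspliced transcripts. The intronic level of Aacs was 0.440 and 0.173 FPKM in the Hypox libraries, 2.01 and 1.54 after 30 min, 2.40 and 2.01 after 90 min, and 1.96 and 3.11 after 240 min. All 6 GH libraries lay above both Hypox libraries, while the libraries of neighbouring GH times overlapped after scaling (in FPKM the 30 and 90 min libraries met at 2.01 without overlapping). The intronic log2 fold change over Hypox was 2.79 ± 0.34 at 30 min, 2.94 ± 0.34 at 90 min and 3.08 ± 0.34 at 240 min, or 6.89-, 7.65- and 8.48-fold. The authors' deposited table gives intronic ratios of 6.36, 7.11 and 8.00. The 2 Hypox libraries differed in Aacs introns, with 581 and 218 reads, and the folds depend on which is used. Without the deeper Hypox library they were 10.5, 11.7 and 13, and without the shallower one 4.49, 4.99 and 5.51.

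The intronic level of Aacs as a percentage of its exonic level was 11.99% and 7.81% in the Hypox libraries, 27.6% and 14.5% after 30 min, 15.1% and 13.6% after 90 min, and 7.62% and 10.6% after 240 min. The share was above both Hypox libraries in all 4 libraries of 30 and 90 min and overlapped with Hypox at 240 min. Slc16a1 had 3.92% and 5.35% in the Hypox libraries, 13.7% and 8.31% after 30 min, 13.4% and 10.1% after 90 min, and 3.46% and 3.84% after 240 min. Its share too was high at 30 and 90 min, and at 240 min both libraries were below both Hypox libraries. In Bdh1, Bdh2, Acat1 and Oxct1 the share lay between 1.26% and 6.11% in every library.

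Bdh1, the mitochondrial enzyme that interconverts acetoacetate and beta-hydroxybutyrate, lies on chromosome 16 at 31422382 to 31458987. Its exonic level was 22.7 and 18.9 FPKM in the Hypox libraries, 21.8 and 17.2 after 30 min, 19.7 and 19.3 after 90 min, and 18.3 and 16.0 after 240 min. The libraries of 30 and 90 min overlapped with Hypox and those of 240 min were both lower. The log2 fold change over Hypox was -0.05 ± 0.12, -0.12 ± 0.12 and -0.35 ± 0.12 at the 3 times.

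The introns of Bdh1 took another course. Their level was 0.571 and 0.483 FPKM in the Hypox libraries, 0.423 and 0.216 after 30 min, 0.271 and 0.398 after 90 min, and 0.641 and 0.672 after 240 min. Both libraries were below Hypox at 30 and at 90 min and above it at 240 min. The intronic log2 fold change over Hypox was -0.66 ± 0.24, -0.72 ± 0.24 and 0.26 ± 0.24 in time order, and -0.28 at 30 min without the shallower library. The authors' deposited table gives intronic ratios of 0.656, 0.611 and 1.19 for Bdh1.

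Bdh2, a cytosolic relative of Bdh1, lies on chromosome 3 at 134944184 to 134967389. Its exonic level was 3.54 and 3.59 FPKM in the Hypox libraries, 4.21 and 3.44 after 30 min, 3.89 and 2.89 after 90 min, and 2.94 and 2.64 after 240 min. The 30 and 90 min FPKM values straddle Hypox and both 240 min values are lower, while after scaling both 30 min libraries are above Hypox, with a log2 fold change over Hypox of 0.13 ± 0.19, -0.12 ± 0.19 and -0.42 ± 0.19. In introns Bdh2 had 0.101 and 0.127 FPKM in the Hypox libraries, 0.0992 and 0.0838 after 30 min, 0.0820 and 0.0627 after 90 min, and 0.0443 and 0.0552 after 240 min. The intronic log2 fold change was -0.18 ± 0.26, -0.68 ± 0.26 and -1.19 ± 0.26, the last a 2.28-fold lower level. It rests on 25 and 26 intronic reads at 240 min, against 77 and 92 in Hypox livers, and both libraries were below Hypox at 90 and at 240 min.

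Acat1, the mitochondrial acetoacetyl-CoA thiolase, lies on chromosome 9 at 53388626 to 53418455. Its exonic level was 17.3 and 19.7 FPKM in the Hypox libraries, 20.1 and 21.7 after 30 min, 20.2 and 19.5 after 90 min, and 23.3 and 17.5 after 240 min. The scaled libraries of each GH time overlapped with Hypox, and the log2 fold change over Hypox was 0.22 ± 0.15, 0.07 ± 0.15 and 0.05 ± 0.15 in time order. In introns Acat1 had 0.344 and 0.515 FPKM in the Hypox libraries, 0.794 and 0.731 after 30 min, 0.642 and 0.716 after 90 min, and 0.539 and 0.311 after 240 min. Both libraries of 30 and of 90 min were above Hypox and those of 240 min overlapped with it. The intronic log2 fold change was 0.98 ± 0.26, 0.64 ± 0.26 and -0.10 ± 0.26, with 314 and 447 reads behind it in Hypox livers.

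Oxct1, which transfers CoA to acetoacetate when ketone bodies are burned and is known to be low in hepatocytes, lies on chromosome 15 at 3976427 to 4105344. Its exonic level was 0.50 and 0.525 FPKM in the Hypox libraries, 0.425 and 0.419 after 30 min, 0.412 and 0.378 after 90 min, and 0.415 and 0.403 after 240 min, the lowest of the 5 enzymes in every library. All 6 GH libraries were below both Hypox libraries. The log2 fold change over Hypox was -0.22 ± 0.22, -0.38 ± 0.22 and -0.37 ± 0.22 in time order, with 60 reads in each Hypox library and 21 to 46 in the GH libraries. In introns it had 0.0192 and 0.0180 FPKM in the Hypox libraries, 0.0260 and 0.0190 after 30 min, 0.0224 and 0.0135 after 90 min, and 0.0168 and 0.0160 after 240 min, with log2 fold changes of 0.37 ± 0.26, -0.13 ± 0.26 and -0.23 ± 0.26. The annotated start of Oxct1 overlaps the gene BC037032, listed at 0.00974 FPKM in Hypox livers, and no source used here says whether counting used the strand, so that reads there cannot be assigned to either gene.

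The order of the 5 exonic levels differed between the groups. In Hypox livers Bdh1 and Acat1 came first with 20.8 ± 2.65 and 18.5 ± 1.72 FPKM, then Bdh2 with 3.57 ± 0.03 and Aacs with 2.94 ± 1.02, and Oxct1 last with 0.513 ± 0.018 (SD, n = 2 each). The libraries of Bdh1 and Acat1 overlapped, as did those of Bdh2 and Aacs, so the order within these pairs is not resolved. At 30 min Aacs stood above Bdh2 and below Acat1 and Bdh1 in both libraries, and at 90 min its 15.4 FPKM were still below the 19.5 and 19.8 FPKM of Bdh1 and Acat1. At 240 min Aacs came first with 27.5 ± 2.51 FPKM, above Acat1 with 20.4 ± 4.10 and Bdh1 with 17.2 ± 1.66 (SD, n = 2 each), and neither Aacs library overlapped with those of Acat1 or Bdh1. The libraries of Acat1 and Bdh1 again overlapped.

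**Figure D2:**
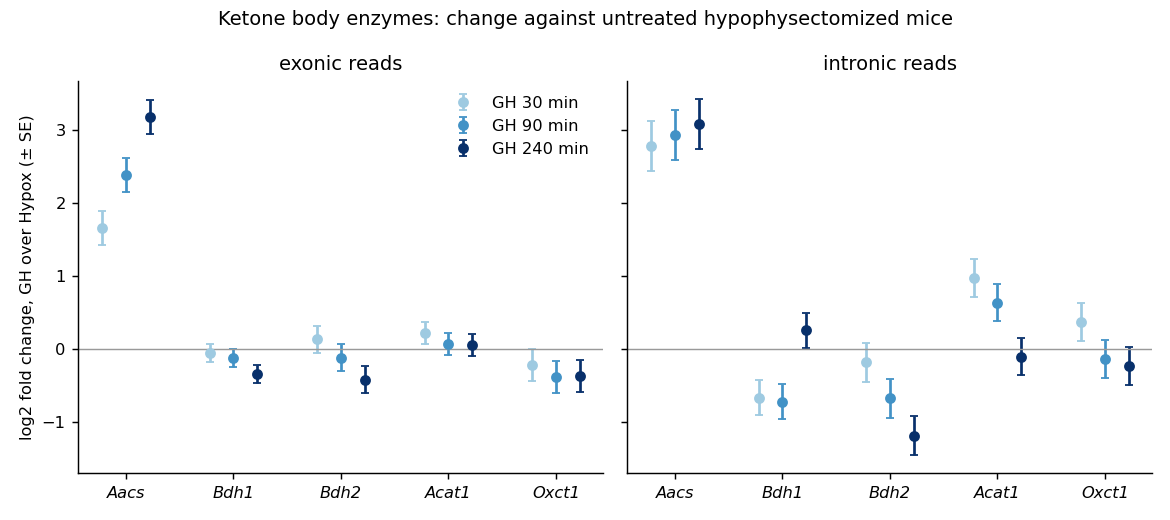
Log2 fold change of the 5 enzymes, GH over Hypox, at 30, 90 and 240 min (light to dark), with limma's SE as bars, for exonic reads on the left and intronic reads on the right. Exonic Aacs steps up over 1.66, 2.38 and 3.18, its introns lie between 2.79 and 3.08 at all times, and the exonic values of the other 4 lie between -0.42 and 0.22.

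Without the shallower 30 min library, the 30 min exonic log2 fold changes over Hypox were 1.32 in Aacs, 0.05 in Bdh1, 0.21 in Bdh2, 0.10 in Acat1 and -0.27 in Oxct1. The intronic ones were 2.88 in Aacs, -0.28 in Bdh1, -0.16 in Bdh2, 0.94 in Acat1 and 0.50 in Oxct1. Bdh1 exons, at -0.05 with both libraries, changed sign, and none of the other 30 min values did.

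Counted over libraries, both GH 30 min libraries had a higher scaled exonic CPM than both Hypox libraries for 2 of the 5 enzymes, Aacs and Bdh2, while 17.8% of the 13168 genes tested did so. Both were lower for Oxct1 alone, against 20.6% of all genes. At 90 min Aacs was higher and Oxct1 lower in this sense, with shares of 18.6% and 22.8% among all genes. At 240 min Aacs was higher and Bdh1, Bdh2 and Oxct1 were lower, with shares of 26.1% and 29.9% among all genes. In intronic reads 3 enzymes were higher and 1 lower at 30 min (19.7% and 22.7% of the 12271 genes tested), 2 were higher and 2 lower at 90 min (25% and 28.2%), and 2 were higher and 2 lower at 240 min (28.6% each). Such separation was thus common among all genes, and nothing is read from these counts for the 5 enzymes.

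In the fit over all genes, a gene was called at an adjusted p under 0.05 (limma, Benjamini-Hochberg over all genes tested). Against Hypox, 0.0532% of genes were called higher and 0.0152% lower in exonic reads at 30 min, 0.63% higher and 0.205% lower at 90 min, and 5.71% higher and 5.54% lower at 240 min. Among the 5 enzymes Aacs alone was called, on the higher side, at each of these times. In intronic reads 1.39% of genes were called higher and 1% lower at 30 min, 3.26% higher and 4.3% lower at 90 min, and 4.94% higher and 6.23% lower at 240 min. Aacs was among the higher genes at each time and Bdh2 among the lower genes at 240 min. Nothing is read from these counts or from any call of the 5 enzymes. Aacs was chosen by results of these same comparisons, and the set was built around it. With library totals as the only scaling, 65.3% of the exonic calls at 240 min were higher, against 50.8% here, and 41.1% of the intronic calls at 30 min, against 58.2% here.

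Between 90 and 30 min 0 of the 13168 genes were called in exonic reads, with 1160 at an unadjusted p under 0.05 and 0 called by limma-voom. In intronic reads 0.0326% of genes were called higher and 0.0407% lower for 90 over 30 min, none of them among the 5 enzymes. Of these intronic calls 44.4% were higher, and 64.0% with library totals as the only scaling. For 240 over 90 min 2.78% were called higher and 2.48% lower in exonic reads, again none of the 5, and 5.57% were called higher and 5.99% lower in intronic reads, with Bdh1 among the higher genes.

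Over the 8 libraries the genes whose exonic profile was most like that of Aacs, among the 9242 tested genes that averaged 2 or more scaled CPM, were Nrep (Pearson r = 0.991), Keg1 (0.975), Onecut1 (0.974), Bzw2 (0.972) and Rnaseh2a (0.971). The 8 points share 4 groups, so that r mainly follows the group means, and no p is given. Nrep averaged 2.16, 5.71 and 12.7 FPKM at 30, 90 and 240 min, against 0.449 FPKM in Hypox livers. Onecut1, the gene of the liver transcription factor HNF6, averaged 7.95, 17.4 and 22.1 FPKM at these times, against 2.08 FPKM in Hypox livers. Keg1 averaged 26.7, 41.3 and 64.2 FPKM, against 13.3 FPKM in Hypox livers. Bzw2 and Rnaseh2a spanned less, with exonic log2 fold changes over Hypox of 0.89 and 1.06 at 240 min.

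The profiles most like Bdh1 were those of Stk24 (r = 0.980), Ndufv1 (0.977) and Ivd (0.977), and those most like Bdh2 were Dsg2 (0.981), Setd3 (0.978) and Pcp4l1 (0.976). Acat1 was most like Lias (0.948), Sucla2 (0.935) and Hadha (0.928), of which Hadha encodes a subunit of the mitochondrial beta-oxidation enzyme complex. Oxct1 was most like Pwwp2a (0.963), Brip1 (0.957) and Eml5 (0.954). These genes moved little, with exonic log2 fold changes over Hypox between -0.52 and 0.20 over all 3 times. Among the 5 enzymes themselves, Pearson's r over the 8 libraries was 0.77 between Bdh1 and Bdh2, and it was -0.73 between Aacs and Bdh1 and -0.89 between Aacs and Oxct1.

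Other genes of ketone body metabolism, and genes of sterol and fatty acid synthesis, were taken in 4 lists. Here each gene was tested in the fit over all genes. The lists were also chosen with earlier results of these data known. Their p-values, and their counts beside the shares over all genes, are therefore not independent evidence. Of 9 genes of ketone body transport, 7 passed the filter in exonic reads and 5 in intronic reads. Slc16a1, which encodes the monocarboxylate transporter MCT1 for lactate and ketone bodies, lies on chromosome 3 at 104442586 to 104462385 (mm9). Its exonic level was 2.46 and 2.89 FPKM in the Hypox libraries, 2.95 and 3.65 after 30 min, 4.09 and 4.58 after 90 min, and 6.76 and 6.97 after 240 min. Both libraries of 90 and of 240 min lay above Hypox. At 240 min Slc16a1 rose 2.44-fold over Hypox (log2 fold change 1.28 ± 0.16, adjusted p = 0.0020), and the call was kept with each library left out. At 30 and 90 min the exonic log2 fold changes of 0.34 ± 0.16 and 0.66 ± 0.16 did not pass the test (adjusted p = 0.733 and 0.12). The authors' deposited table differs at 90 min, with an exonic ratio of 1.60 and an adjusted p of 0.00927.

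The introns of Slc16a1 were highest at 90 min. Their level was 0.0963 and 0.155 FPKM in the Hypox libraries, 0.405 and 0.303 after 30 min, 0.550 and 0.461 after 90 min, and 0.234 and 0.268 after 240 min, so that all 6 GH libraries lay above Hypox. They rose 3.02-fold at 30 min (log2 fold change 1.60 ± 0.25, adjusted p = 0.00736; 0.0598 without the deeper Hypox library) and 3.84-fold at 90 min (1.94 ± 0.25, adjusted p = 0.00154, kept with each library left out). At 240 min they rose 1.91-fold over Hypox (0.93 ± 0.25, adjusted p = 0.0376), a call lost without the deeper Hypox library (0.183), the deeper 240 min library (0.108) or the shallower 240 min library (0.157). The 240 min call was also lost without the filter on low reads (adjusted p = 0.0575) and in a fit of only the 2 groups compared (0.0609). The authors' deposited table gives an adjusted p of 0.0503 for it. Between 240 and 90 min the introns of Slc16a1 fell, with a log2 fold change of -1.01 ± 0.25 (adjusted p = 0.026). This call was lost with any of the 4 libraries of these times left out (adjusted p = 0.072 to 0.16).

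Other transporters differed from Slc16a1. Slc16a6, whose fish relative exports beta-hydroxybutyrate from hepatocytes in zebrafish, rose 2.13-fold in exonic reads at 240 min (log2 fold change 1.09 ± 0.28, adjusted p = 0.0315) and 2.40-fold in introns (1.26 ± 0.31, adjusted p = 0.0281). The exonic call was lost without the shallower Hypox (0.204), the deeper 240 min (0.126) or the shallower 240 min library (0.0722), and the intronic call whichever library was left out (0.0548 to 0.207). Slc16a7, which encodes the monocarboxylate transporter MCT2, fell in introns, with log2 fold changes of -1.99 ± 0.32 at 90 min and -2.11 ± 0.32 at 240 min (adjusted p = 0.00379 and 0.00385), while its exonic level of 14.1 FPKM at 240 min, against 17.9 FPKM in Hypox livers, did not pass the test (adjusted p = 0.0998). The 90 min call was kept with each library left out, and the 240 min call was lost without the shallower Hypox library (0.0575) or the deeper 240 min library (0.05003). In all, 2 of 7 transport genes rose and 0 fell in exonic reads at 240 min (median log2 fold change -0.06, against -0.03 over all genes), where 5.71% of all genes tested were called higher and 5.54% lower, and 0 of 7 were called at 30 or 90 min, with 0 and 1 at an unadjusted p under 0.05 and 0 by limma-voom. In introns 1 of 5 rose at 30 min, 1 rose and 1 fell at 90 min, and 2 rose and 1 fell at 240 min, while over all genes the shares called higher were 1.39%, 3.26% and 4.94% in time order and those called lower 1%, 4.3% and 6.23%.

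**Figure D3:**
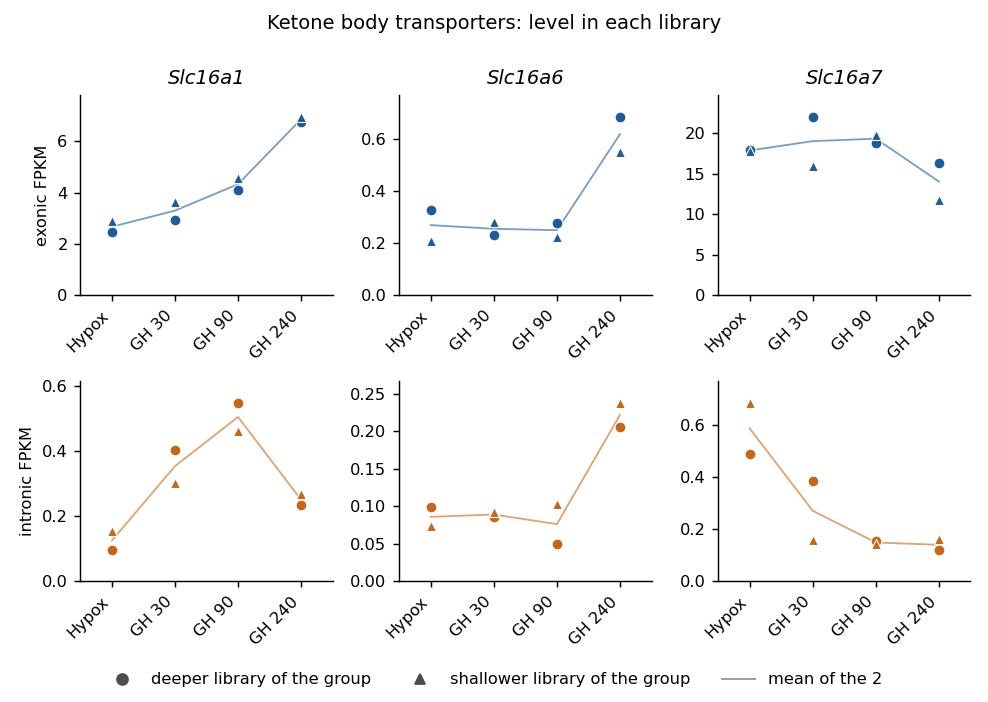
Exonic (upper row) and intronic (lower row) level in FPKM of the transporter genes Slc16a1, Slc16a6 and Slc16a7 in each library, axes starting at 0, by group in time order; circles are the deeper and triangles the shallower library of a group, and lines join the means of the 2. Slc16a1 exons reach 6.76 and 6.97 FPKM at 240 min while its introns peak at 90 min, Slc16a6 exons are at 0.685 and 0.550 FPKM at 240 min, against 0.328 and 0.210 FPKM in the Hypox libraries, and Slc16a7 introns are at 0.119 and 0.161 FPKM at 240 min, against 0.487 and 0.685 FPKM in the Hypox libraries.

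Of 10 genes of ketone body synthesis and use outside the 5 enzymes, 6 passed the filter in exonic reads, and 0 of 6 were called at 30, 90 or 240 min, with 0 at an unadjusted p under 0.05 at each time and 0 by limma-voom. Their median exonic log2 fold change over Hypox was 0.10, -0.01 and -0.11 in time order, against -0.01, -0.02 and -0.03 over all genes.

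In introns 7 of these 10 genes passed the filter. None of the 7 was called at 30 min, with 5 at an unadjusted p under 0.05 and 0 by limma-voom. At 90 min 1 of 7 rose and 1 fell (3.26% and 4.3% over all genes), and at 240 min 1 fell (6.23%). At 90 min Hadha rose (log2 fold change 0.64 ± 0.17, adjusted p = 0.0474), a call lost with any library of the pair left out (0.108 to 0.28). Hadh, a mitochondrial hydroxyacyl-CoA dehydrogenase of beta-oxidation, fell by 1.19 ± 0.19 at 90 min (adjusted p = 0.00369), and Auh, an enzyme of leucine breakdown, fell by 1.04 ± 0.15 at 240 min (adjusted p = 0.00296), both on the log2 scale and both kept with each library left out. The exonic levels of Hadha, Hadh and Auh did not pass the test at any time.

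Of 18 genes that control ketogenesis, 17 passed the filter in exonic reads and none of the 17 was called at 30 or 90 min, with 2 and 4 at an unadjusted p under 0.05 and 0 by limma-voom. At 240 min 2 of 17 fell, against 5.54% of all genes tested, and the median exonic log2 fold change was -0.27, against -0.03 over all genes. Ppargc1a, a coactivator of fasting metabolism, fell to 0.264 FPKM at 240 min, against 1.08 FPKM in Hypox livers (log2 fold change -1.89 ± 0.35, adjusted p = 0.00949). Its deeper and shallower Hypox libraries differed, at 0.599 and 1.56 FPKM, from 134 and 333 exonic reads. Ppara, the fatty acid sensing receptor that drives ketogenic genes, fell by 0.63 ± 0.17 on the log2 scale (adjusted p = 0.0391), a call lost with any library of the pair left out (0.0601 to 0.20).

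In introns 16 of the 18 passed the filter, and 1 fell at 30 min, 5 at 90 min and 3 at 240 min, with none higher. Over all genes tested in introns, 1%, 4.3% and 6.23% were called lower at these times. Cpt1a, the carnitine palmitoyltransferase that admits fatty acids to mitochondria, fell in introns at 30, 90 and 240 min, with log2 fold changes of -1.25, -1.26 and -0.93, each ± 0.19 (adjusted p = 0.00735, 0.00347 and 0.0134), while its exonic log2 fold change was -0.01, -0.05 and -0.28. The 90 min call was kept with each library left out. The 30 min call was lost without the deeper (0.0584) or the shallower Hypox library (0.0613), and the 240 min call without the shallower Hypox (0.114) or the shallower 240 min library (0.0832).

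Ppargc1a introns fell by 2.08 ± 0.30 at 90 min (adjusted p = 0.00236, kept with each library left out) and by 1.82 ± 0.30 at 240 min (0.00565; 0.0705 without the shallower Hypox and 0.0583 without the deeper 240 min library). Ppara introns fell by 1.16 ± 0.23 at 90 min (0.0122; lost without the deeper Hypox, 0.0742, the shallower Hypox, 0.0712, or the shallower 90 min library, 0.128). Sirt3, a mitochondrial deacetylase, fell in introns by 0.66 ± 0.14 at 90 min (0.0171; lost without the shallower Hypox, 0.153, the deeper 90 min, 0.116, or the shallower 90 min library, 0.0871) and by 0.51 ± 0.14 at 240 min (0.0428; lost whichever library was left out, 0.0573 to 0.285). Creb3l3, a liver transcription factor of fasting named here after its value was seen, fell by 1.21 ± 0.26 at 90 min (0.0178; lost without the deeper Hypox, 0.13, the deeper 90 min, 0.115, or the shallower 90 min library, 0.0619). The values in parentheses are adjusted p from limma.

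A list of 22 genes took in makers and users of cytosolic acetoacetyl-CoA and acetyl-CoA, and other genes that act in or control sterol and fatty acid synthesis. In exonic reads 21 passed the filter. None was called at 30 or 90 min, with 1 and 5 at an unadjusted p under 0.05 and 0 by limma-voom. At 240 min 3 of 21 rose and 2 fell, against 5.71% higher and 5.54% lower over all genes. The genes that rose belong to sterol synthesis. Sqle, squalene epoxidase, rose 2.34-fold (log2 fold change 1.23 ± 0.28, adjusted p = 0.021; lost without the deeper Hypox, 0.121, or the shallower 240 min library, 0.109). Mvd, which acts in the mevalonate pathway, rose 1.98-fold (0.98 ± 0.26, adjusted p = 0.0365; lost without the deeper Hypox, 0.151, the shallower Hypox, 0.116, or the shallower 240 min library, 0.181). Idi1, an isomerase of the same pathway named here after its value was seen, rose by 1.13 ± 0.31 (adjusted p = 0.0397), a call lost with any library of the pair left out (0.0731 to 0.202).

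The genes that fell in exonic reads at 240 min belong to fatty acid synthesis. Scd1, the stearoyl-CoA desaturase, fell to 83.7 FPKM, against 216 FPKM in Hypox livers (log2 fold change -1.43 ± 0.25, adjusted p = 0.00641, kept with each library left out). Srebf1, a transcription factor of lipid synthesis, fell by 0.73 ± 0.16 on the log2 scale (adjusted p = 0.0194; lost without the deeper Hypox, 0.12, or the deeper 240 min library, 0.0942). The median exonic log2 fold change of the list was 0.21, -0.23 and 0.11 in time order.

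In introns 21 of the 22 passed the filter and none was called at 30 min, with 5 at an unadjusted p under 0.05 and 0 by limma-voom. At 90 min 1 of 21 rose and 4 fell, against 3.26% higher and 4.3% lower over all genes. Acaca, acetyl-CoA carboxylase, rose (log2 fold change 0.81 ± 0.17, adjusted p = 0.0155; lost without the shallower Hypox, 0.155, the deeper 90 min, 0.0761, or the shallower 90 min library, 0.114). Acss2, the cytosolic acetyl-CoA synthetase, fell by 1.11 ± 0.23 (0.0135; lost without the deeper Hypox, 0.0781, the shallower Hypox, 0.082, or the shallower 90 min library, 0.129). Acly, ATP citrate lyase, fell by 0.86 ± 0.20 (0.0264; lost whichever library was left out, 0.0602 to 0.203).

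Insig1 and Acat3, named after their values were seen, fell in introns at 90 min by 1.28 ± 0.33 and 0.73 ± 0.18 (adjusted p = 0.0379 and 0.0329), and 3 of 4 left-out libraries ended each call. For Insig1 these were the deeper Hypox (0.211), the shallower Hypox (0.0852) and the shallower 90 min library (0.289), and for Acat3 the shallower Hypox (0.275), the deeper 90 min (0.0781) and the shallower 90 min library (0.23). Acat3 is closely related to Acat2, and reads may be shared between them. For 240 over 90 min 8 of 21 genes of this list rose in introns and 0 fell, against 5.57% and 5.99% over all genes. Acly, Acss2 and Insig1 were among those that rose. This comparison shares its 90 min libraries with the 90 min falls. At 240 min 2 of 21 rose over Hypox in introns, against 4.94% over all genes. Lss, lanosterol synthase, rose by 1.05 ± 0.28 (adjusted p = 0.0355; lost without the shallower Hypox, 0.309, the deeper 240 min, 0.0553, or the shallower 240 min library, 0.203), and Elovl6, a fatty acid elongase, by 0.94 ± 0.26 (0.0418; lost without the deeper Hypox, 0.089, the shallower Hypox, 0.262, or the shallower 240 min library, 0.198).

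**Figure D4:**
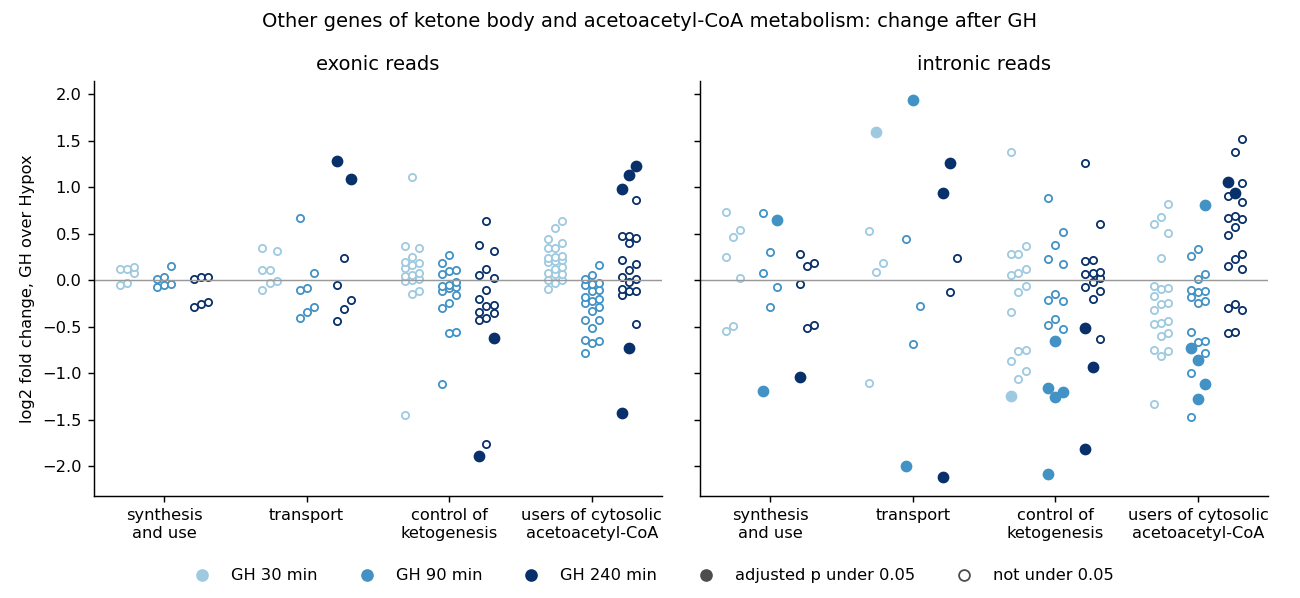
Log2 fold change, GH over Hypox, of the tested genes of the 4 lists at 30, 90 and 240 min (light to dark) in exonic reads (left) and intronic reads (right); filled points have a limma adjusted p under 0.05. Exonic calls appear only at 240 min, 9 in all, whereas introns have 2, 14 and 9 calls in time order.

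Over the 4 lists together, 0, 0 and 9 genes were called in exonic reads at 30, 90 and 240 min against Hypox, and 2, 14 and 9 in intronic reads. In exonic reads at 240 min 5 of 51 rose and 4 fell, against 5.71% and 5.54% over all genes. In introns 1 of 49 rose and 1 fell at 30 min (1.39% and 1% over all genes), 3 rose and 11 fell at 90 min (3.26% and 4.3%), and 4 rose and 5 fell at 240 min (4.94% and 6.23%). For 240 over 90 min 11 of 49 rose and 3 fell in introns (5.57% and 5.99%), with Hadh and Creb3l3 among the higher. In exonic reads 6 of 51 rose and 1 fell (2.78% and 2.48%). The list counts against Hypox were refitted with 1 library left out, and those for 240 over 90 min were not. Leaving out 1 library gave a 240 min exonic count of 4 without the deeper Hypox library, 6 without the shallower Hypox library, 9 without the deeper 240 min library and 4 without the shallower 240 min library. The 90 min intronic count of 14 moved to 8 and 6 with the deeper or the shallower Hypox library left out, and to 10 and 5 with the deeper or the shallower 90 min library left out. The 240 min intronic count of 9 moved to 7 and 2 with the deeper or the shallower Hypox library left out, and to 3 with either 240 min library left out. The 30 min intronic count of 2 moved to 0 and 1 without the deeper and the shallower Hypox library and to 6 without the deeper 30 min library.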

How the data were processed

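Liver RNA was sequenced in 8 libraries after partial depletion of ribosomal RNA, with strand-specific libraries, per the labels' protocols. TopHat2, featureCounts, edgeR and build mm9 are named in the submitters' processing notes, without versions. The authors deposited 1 table of 24197 genes with the mean FPKM of the 2 libraries of each group, over the gene body (normalized to exon length), and, in columns of the same form, a mean intronic signal per length of intron, which is also called FPKM here. It also gives the authors' ratio of each time to Hypox and an adjusted p-value, with no source used here saying how it was adjusted.

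Whole reads per library were recovered from these means by arithmetic, since each mean is a sum of 2 whole read numbers divided by the library totals and the gene's length. Of 18359 genes with a value, 18357 (99.99%) gave whole exonic reads, and 17098 of 17098 gave whole intronic reads. With the totals moved by 1000 reads, 0 of 1000 genes did so, against 1000 of 1000 with the totals used. On simulated data 997 of 1000 genes were recovered in exons, where the gene's length was searched too. In introns 1000 of 1000 were recovered, but there the length was given. Of 14441 genes at a single location with an intronic value, 13539 had an intron length equal to the gene's span less its exons. The other intron lengths came from a search that the simulation did not cover. Libraries are called the deeper or shallower of their group, because the arithmetic does not give pool numbers. One Hypox pool carries another batch prefix in its label than the other 7 libraries, and for the same reason it cannot be told which library it is.

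Reads were divided by library totals (CPM) and scaled by median-of-ratios factors (0.916 to 1.05 exonic, 0.859 to 1.06 intronic), taken from genes that averaged 50 or more reads. Genes reaching 10 reads in 2 or more libraries were fitted with limma 3.58.1 in R 4.3.3 as log2(CPM + 0.1) with trended variance and group as the only term, 13168 in exonic and 12271 in intronic reads. A fold change on this scale understates that of genes with few reads. Tests are two-sided, adjusted by Benjamini-Hochberg over all genes tested, with 4 residual degrees of freedom, and a gene is called at an adjusted p under 0.05. The genes named are the 5 enzymes, Slc16a1, up to 4 called genes with the smallest p for each list and time against Hypox, the 5 genes most like Aacs and the 3 most like each other enzyme. The enzymes and the lists were chosen with earlier results of these data known. Some genes are not reported here and were taken out of the lists. Alternatives were other scalings, a pseudocount of 1, no filter, limma-voom, only the groups compared, each library left out, and the authors' deposited values.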

Additional observations from a re-analysis of the deposited data

Results flagged for a closer look

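The introns of the ketone body transporter gene Slc16a1 differed between times, with a log2 fold change of -1.01 for 240 over 90 min (adjusted p = 0.026, limma). Its response in introns was thus smaller at the later time, and the difference itself was tested. As stated above, the call was lost whichever library of these times was left out. The deeper and shallower 240 min libraries had 92 and 88 intronic reads and the 90 min libraries 271 and 113. These reads are not divided by library size, and the FPKM levels are given above.

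In 3 genes, after scaling, both libraries of an earlier time and both of a later time lay on opposite sides of Hypox. The fit did not compare 240 with 30 min, so this was not tested for Bdh2 exons and Oxct1 introns. For Bdh1 the fit did compare 240 with 90 min, and its introns were called higher. Nothing is read from that call, as for the other calls of these enzymes. Bdh1 introns had log2 fold changes over Hypox of -0.66 at 30 min, -0.72 at 90 min and 0.26 at 240 min. Bdh2 exons had 0.13 at 30 min and -0.42 at 240 min. Oxct1 introns had 0.37 at 30 min and -0.23 at 240 min, with 43 to 88 reads behind these values. Each group held 2 libraries, too few to look for a single library that stands apart within a group.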

How the results depend on the processing

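No paired analysis was possible because the pool numbers in the labels cannot be tied to the libraries recovered from group means. With 2 libraries a group, leaving 1 out assumes that the lone library varies like the other groups, and it changed most counts of called genes. In exonic reads, without each library in turn, 1 to 38 genes were called at 30 min (9 with all libraries, with the low end set by the deeper Hypox library and the high end by the deeper 30 min library), 11 to 23 at 90 min (110), 361 to 994 at 240 min (1481), 0 to 30 for 90 over 30 min (0) and 109 to 581 for 240 over 90 min (693). In intronic reads the ranges were 88 to 444 (294), 333 to 542 (928), 135 to 1121 (1371), 0 to 174 for 90 over 30 min (9) and 577 to 644 for 240 over 90 min (1419). The 4 gene lists together ranged over 0 to 1 and 4 to 9 called genes in exonic reads at 30 and 240 min (0 throughout at 90 min) and 0 to 6, 5 to 10 and 2 to 7 in intronic reads, in time order. Log2 fold changes over Hypox that moved by more than the SD between libraries were those of Aacs introns (2.17 to 3.40, 2.32 to 3.55 and 2.46 to 3.70 in time order), Bdh1 introns at 30 min (-1.05 to -0.28), Bdh2 exons at 90 min (-0.34 to 0.10), Oxct1 introns at 90 min (-0.50 to 0.23), and Acat1 at 240 min in exons (-0.13 to 0.25) and introns (-0.47 to 0.27).

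Among the other settings, without the filter on low reads 5 genes were called in exonic reads at 30 min and 66 at 90 min, 0 in introns for 90 over 30 min, and 5 and 4 list genes at 240 min in exons and introns. limma-voom called 5 exonic genes at 30 min and 1 intronic gene for 90 over 30 min. A fit of only the 2 groups compared called 172 and 966 exonic genes at 90 and 240 min, 154 intronic genes at 30 min, 0 for 90 over 30 min in introns, and 1 list gene in exons at 90 min. In the authors' deposited table an adjusted p under 0.05 was given for 105 and 387 gene bodies at 30 and 90 min and 448 introns at 30 min, and for 1, 4 and 5 of the list genes there. With library totals as the only scaling, 7 exonic and 25 intronic genes were called for 90 over 30 min. That scaling made 65.3% of exonic calls at 240 min higher, against 50.8% with the scaling used, 41.1% of intronic calls at 30 min higher (58.2%), and 64.0% for 90 over 30 min in introns (44.4%). A pseudocount of 1 CPM gave Oxct1 exons log2 fold changes of -0.15, -0.25 and -0.24 in time order and Bdh2 introns -0.78 at 240 min. Of 35 calls of named genes, 9 were kept with each library left out, 7 were lost whichever library was left out, 23 were kept under each other setting, and 32 of the 34 that the authors' deposited table also holds had an adjusted p under 0.05 there. No call changed sign. The cause of these changes was not tested. Depth limits Oxct1 and the introns of Bdh2, with under 100 reads in each library.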
